A study of Mus musculus with 4 samples.

Results

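The genes described here are 10 markers of resident fibroblasts, Ddr2, Pi16, Dpt, Islr, Gsn, Mfap5, Cd248, Thy1, Cd34 and Vim, out of 21631 protein-coding genes on the chromosomes that hold peaks. Their peaks are all those with a summit inside the annotated span of a gene or within 50 kb of either end, which gave 53 of 21285 peaks in a first deposited list and 48 of 21218 in a second, called list 1 and list 2. The study used ChIP-seq, sequencing of DNA recovered by immunoprecipitating chromatin, on heart fibroblasts from newborn mice to look for elements bound by TEAD1. The 4 libraries were a ChIP and an input library of cells overexpressing TEAD1 (OE-TEAD1), and a ChIP and an input library of cells with the overexpression negative control (OE-NC), with 1 library each and no replicates. Input is sheared chromatin set aside before the antibody step, and all libraries came from chromatin fixed with 1% formaldehyde and sonicated to fragments of 100 to 400 bp. The labels tie neither list to OE-TEAD1 or OE-NC, so nothing is said here of the effect of overexpression. The sources used here name neither the vector, the antibody and the strain nor the way the fibroblasts were isolated.

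Fibroblasts of the heart make and organise the matrix around the muscle cells, and in the uninjured heart they are recognised by a set of surface proteins, matrix proteins and cytoskeletal proteins rather than by a single gene. Ddr2 encodes a receptor tyrosine kinase that binds collagen, Thy1 and Cd34 encode surface glycoproteins of stromal and progenitor cells, and Cd248 encodes endosialin, a surface protein of mesenchymal cells. Pi16, Dpt, Islr and Mfap5 encode secreted or membrane-anchored proteins of stroma, and Gsn and Vim encode gelsolin and vimentin, proteins of the actin and intermediate filament systems. TEAD factors bind DNA and recruit the Hippo pathway coactivators YAP and TAZ. A peak shows where chromatin was enriched over input and does not measure transcription, so neither the expression of these genes nor the labelled cell type could be checked here.

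Every one of the 10 genes had at least 1 summit in reach, in list 1 as in list 2. Over all protein-coding genes the same rule was met by 58.2% in list 1 and 59.0% in list 2. Within 10 kb the counts were 10 of 10 genes in list 1 and 7 of 10 in list 2, against 33.7% and 33.8% of all protein-coding genes, and the genes without such a summit in list 2 were Pi16, Islr and Mfap5. Within 1 kb they were 6 of 10 and 5 of 10, against 23.1% and 23.0%. Pi16, Islr, Cd248 and Thy1 had no summit within 1 kb in either list, and Mfap5 had none in list 2. The median number of summits per gene was 3 in list 1 and 4 in list 2, against 1 in each list over all protein-coding genes.

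The peaks were dense around these genes, and the median fold of the whole list lay inside the interval of theirs in each list. Pooled over the 10 windows, which covered 1285 kb, there were 41.2 summits per Mb in list 1 and 37.3 in list 2. The average over all chromosomes was 8.37 and 8.32 summits per Mb. Taken gene by gene, the median of the 10 was 28.2 in list 1 and 32.0 in list 2, against 7.73 and 7.83 over single protein-coding genes. Fold over input is the authors' deposited ratio of ChIP to background at a summit, and all folds here are theirs. It had a median of 6.08 near the 10 genes in list 1 (95% interval of the median, from the ranks of the peaks, 4.73 to 7.71), against 6.24 over the whole of list 1. In list 2 the medians were 5.88 near the genes (4.54 to 7.33) and 6.83 over the whole list. Both intervals treat the peaks as independent, though many lie around the same gene, so they may be too narrow. Near the genes 10 of 53 peaks were 10-fold or more in list 1 (18.9%, against 22.9% of the whole list) and 9 of 48 were so in list 2 (18.8%, against 28.1%).

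**Figure D1:**
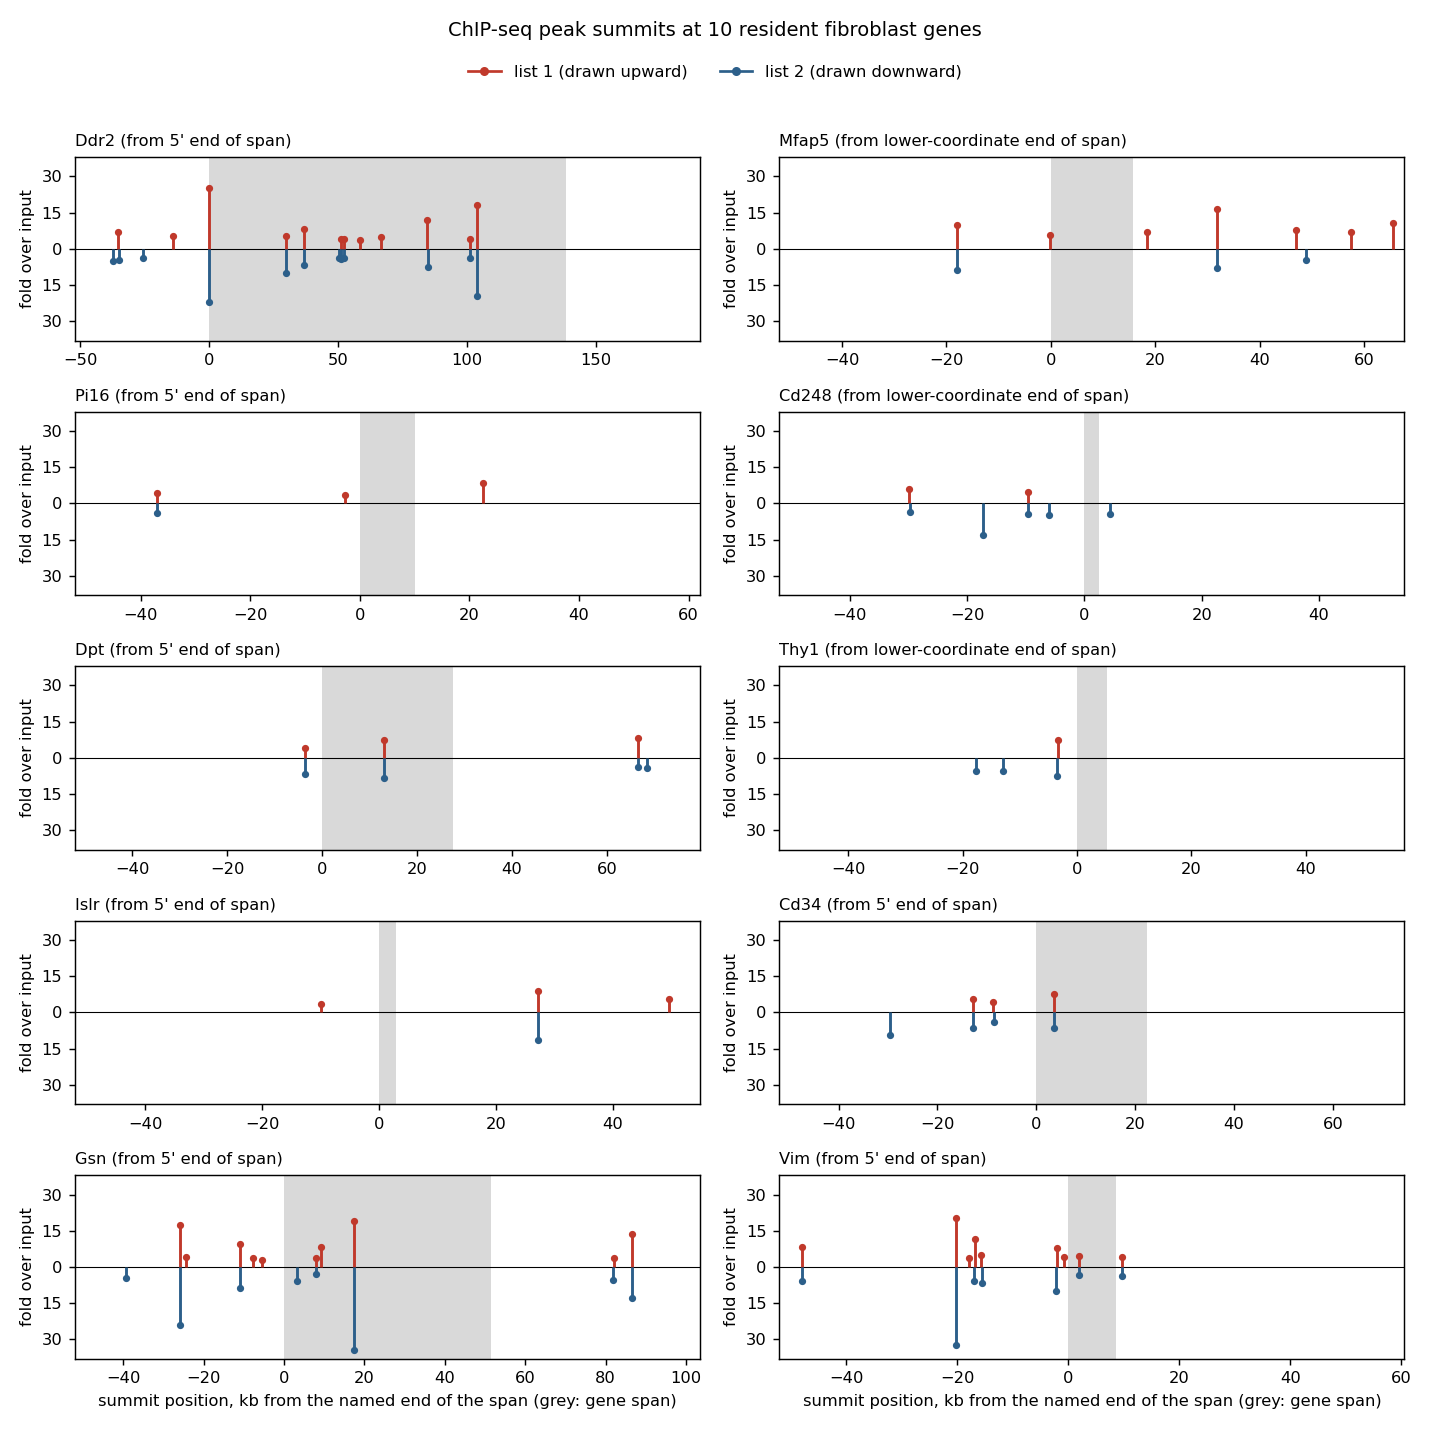
Summits around each of the 10 genes, with the distance in kb from an end of the gene span on the horizontal axis and the fold over input on the vertical axis (list 1 upward, list 2 downward, gene span in grey). Ddr2, Gsn and Vim carry the tall sites in both lists, while Pi16, Islr and Thy1 have between 1 and 3 summits in each list.

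The 4 promoter windows in reach that a peak touched all belonged to neighbouring genes, and they are the places where the base sequence under a peak could be read. RefSeq lists 55 promoter windows (250 bases before to 50 after a transcription start) within reach of the 10 genes. Of these, 9 belonged to 7 of the genes themselves and no peak of either list overlapped any of the 9, against 1.81% of 32619 windows overlapped by a peak in list 1 and 1.69% in list 2. So few windows cannot be told from that background. Mfap5, Cd248 and Thy1 had no entry. Of the 46 windows of other genes, 3 were overlapped by a peak in list 1 and 4 in list 2. The 3 printed here are those of the 4 that hold the letters of a TEAD site (GGAATG, or CATTCC on the other strand) or of an AP-1 site (TGAGTCA or TGACTCA); no match of one motif overlapped the other. Capitals mark the match. All are on the plus strand of GRCm38.p6, 5′ to 3′, as RefSeq gives them.

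Rin1 promoter near Cd248, chr19:5050565-5050864: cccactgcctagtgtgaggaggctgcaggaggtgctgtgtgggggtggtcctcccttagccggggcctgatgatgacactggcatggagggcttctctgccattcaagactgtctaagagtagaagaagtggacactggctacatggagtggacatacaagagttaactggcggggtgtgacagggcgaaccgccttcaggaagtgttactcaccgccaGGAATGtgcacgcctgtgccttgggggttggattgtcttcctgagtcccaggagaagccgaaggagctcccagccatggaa

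Gm9875 promoter near Vim, chr2:13558653-13558952: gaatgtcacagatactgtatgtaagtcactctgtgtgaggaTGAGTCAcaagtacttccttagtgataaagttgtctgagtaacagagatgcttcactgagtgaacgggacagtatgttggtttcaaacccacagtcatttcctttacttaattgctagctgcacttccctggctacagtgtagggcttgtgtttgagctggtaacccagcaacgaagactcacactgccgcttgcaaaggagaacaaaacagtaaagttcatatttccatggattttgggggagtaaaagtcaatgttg

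Gm20743 promoter near Dpt, chr1:164862871-164863170: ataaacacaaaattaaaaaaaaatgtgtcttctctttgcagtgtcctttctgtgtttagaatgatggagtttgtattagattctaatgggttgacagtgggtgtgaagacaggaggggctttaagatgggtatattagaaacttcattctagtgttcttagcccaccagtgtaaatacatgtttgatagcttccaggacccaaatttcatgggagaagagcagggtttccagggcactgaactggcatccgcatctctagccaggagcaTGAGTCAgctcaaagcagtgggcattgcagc

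In the Rin1 window the TEAD letters filled bases 220 to 225, and the summit of the list 2 peak lay 3 bp from them. That peak, on chromosome 19 at 5050632 to 5050987, was 13.3-fold over input (95% interval 9.44 to 18.1, 37 ChIP fragments at the summit) and had no counterpart in list 1. In the Gm9875 window the AP-1 letters lay 16 bp from the list 1 summit and 157 bp from the list 2 summit. In the Gm20743 window they lay 14 bp from the list 1 summit and 87 bp from the list 2 summit. The other window with a peak, that of Gm32652, held neither motif. TEAD letters were present in 14.6% of all 32619 promoter windows. They were present in 44.7% of the 304 windows that held a list 1 summit and in 45.3% of the 276 that held a list 2 summit. AP-1 letters were present in 5.22% of all windows, and in 17.1% and 17.0% of those with a summit. None of the 9 windows of the 10 genes held either motif. A match describes letters in a window and does not show a bound site.

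Ddr2, the collagen receptor, carried the strongest site of all 10 genes in list 1. It lay across the 5′ end of the annotated span, with its summit 0.03 kb inside it (chromosome 1, 170110424 to 170111393 in list 1 and 170110493 to 170111344 in list 2). Its fold was 25.4 in list 1 (95% interval 20.1 to 31.6, 77 fragments) and 21.9 in list 2 (17.5 to 27.0, 83 fragments). The summits of the lists were 2 bp apart. The only Ddr2 transcription start in the RefSeq promoter table lies 21.9 kb farther into the gene. A second site, 104 kb from the 5′ end inside the gene (170006299 to 170007149 in list 1), reached 18.2-fold in list 1 (13.7 to 23.7) and 19.6-fold in list 2 (15.4 to 24.7).

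The other Ddr2 sites were weaker. The third site by strength lay 84.7 kb from the 5′ end and was 11.8-fold in list 1 and 7.34-fold in list 2. Another lay 29.7 kb from the 5′ end and was 5.36-fold in list 1 and 10.1-fold in list 2. The fifth lay 36.9 kb from the 5′ end, with folds of 8.07 and 6.51. In all, Ddr2 had 12 summits in each list, of which 10 and 9 were inside its span of 138.5 kb. Such a long span gives more room for summits, and per Mb of window Ddr2 had 50.3 in each list. That density was reached by 2.34% of protein-coding genes in list 1 and 2.08% in list 2. Sites over 25 kb upstream lay nearer to or inside Uap1, the neighbouring gene.

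Thy1, Cd34 and Cd248, which encode the other surface proteins, had no site over 10-fold in list 1. Thy1, also known as CD90, had 1 summit in list 1 and 3 in list 2. Its shared site lay 3.35 kb from the lower-coordinate end of the span (chromosome 9, 44039782 to 44040215 in list 1) and was 7.46-fold in list 1 (4.97 to 10.8, 26 fragments) and 7.33-fold in list 2 (4.61 to 11.1, 20 fragments). The others, 12.97 and 17.6 kb away and in list 2 alone, were 5.58-fold and 5.23-fold on 15 and 14 fragments. Thy1 thus had a single shared site, with folds that differed by far less than their counting error. Its summits in the lists were 153 bp apart, against a median of 21 bp over the 35 shared sites of the 10 genes.

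Cd34 had 3 summits in list 1 and 4 in list 2, and no other protein-coding gene was nearer to any of them. Inside the gene, 3.51 kb from its 5′ end (chromosome 1, 194942060 to 194942592 in list 1), the folds were 7.71 in list 1 (4.85 to 11.7) and 6.27 in list 2 (3.85 to 9.72). Upstream sites at 12.9 and 8.71 kb were 5.51-fold and 4.41-fold in list 1, and 6.51-fold and 3.77-fold in list 2. The strongest Cd34 site, 29.6 kb upstream (194908839 to 194909487), was in list 2 alone at 9.42-fold (6.27 to 13.6, 26 fragments).

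Cd248 had 2 summits in list 1 and 5 in list 2, none of them inside its short span of 2.56 kb. The site at the Rin1 promoter printed above was the strongest, 17.3 kb from the Cd248 span. The strongest in list 1 lay 29.8 kb away and 0.57 kb from B4gat1, with folds of 6.08 (3.98 to 8.93) in list 1 and 3.76 (2.31 to 5.82) in list 2. At 9.55 kb the folds were 4.77 and 4.54 on 12 fragments in each list. A site 5.97 kb from the span and nearer to Rin1 was in list 2 alone at 4.66-fold (2.73 to 7.49). Of the 5 Cd248 sites 1 was nearer to Cd248 than to another protein-coding gene. It lay 1.90 kb from the span and was in list 2 alone at 4.43-fold (2.64 to 7.02).

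Among the secreted and matrix genes, Mfap5 differed the most in number between the lists, with 7 summits in list 1 and 3 in list 2. Mfap5 encodes a glycoprotein of elastic microfibrils. Its strongest list 1 site, 16.2 kb above the span in coordinates (chromosome 6, 122545148 to 122545637), was 16.5-fold in list 1 (12.1 to 22.1, 44 fragments) and 8.03-fold in list 2 (5.16 to 12.0, 22 fragments). These intervals did not overlap. A site 18.1 kb below the span and nearer to Rimklb, strongest in list 2, was 9.91-fold in list 1 and 8.71-fold in list 2. The 2 summits closest to the gene were in list 1 alone, at 0.15 kb (5.57-fold, 3.46 to 8.54) and 2.71 kb (7.06-fold, 4.39 to 10.8). A site inside Apobec1 and 49.8 kb from Mfap5 was 10.6-fold (7.20 to 15.2), also in list 1 alone, and lay just inside the 50 kb limit. Mfap5 itself was the nearest protein-coding gene to 2 of its 8 sites.

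Dpt, encoding the matrix protein dermatopontin, was the nearest protein-coding gene to all 4 of its sites. The site inside the gene, 12.97 kb from the 5′ end (chromosome 1, 164809296 to 164809852 in list 1), was 7.24-fold in list 1 (4.78 to 10.6) and 8.14-fold in list 2 (5.51 to 11.6), with summits 3 bp apart. A site 3.55 kb upstream was 4.04-fold in list 1 (2.13 to 7.12) and 6.63-fold in list 2 (4.07 to 10.3). The site 38.9 kb past the gene, at the noncoding genes Gm20743 and Gm32652, was 8.11-fold in list 1 (5.32 to 11.9) and 3.84-fold in list 2 (2.02 to 6.77). The intervals overlapped, on 24 and 10 fragments. The last Dpt site, 40.8 kb past the gene, was in list 2 alone at 4.37-fold (2.52 to 7.13).

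Pi16 and Islr, like Thy1, had 3 sites each, of which 1 was shared. Pi16 encodes peptidase inhibitor 16, a marker of adventitial fibroblasts. Its only shared site lay 37.0 kb upstream inside BC004004 (chromosome 17, 29281574 to 29281851 in list 1), with folds of 4.41 in list 1 (2.38 to 7.59) and 4.05 in list 2 (2.29 to 6.72). Its strongest peak, 8.45-fold (5.43 to 12.6), was in list 1 alone and lay inside the neighbouring gene Mtch1. A weak one 2.75 kb upstream, 3.65-fold (2.11 to 5.96), was also in list 1 alone. Islr, which encodes the stromal membrane protein meflin, had 1 shared site, inside Stra6 and 24.3 kb from the Islr span (chromosome 9, 58131677 to 58132059 in list 1). Its folds were 8.81 in list 1 (5.72 to 13.04, 23 fragments) and 11.5 in list 2 (7.99 to 16.1, 32 fragments). The Islr summits in list 1 alone were 3.67-fold on 9 fragments, 9.86 kb upstream, and 5.51-fold, 46.6 kb away inside Ccdc33.

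Gsn and Vim, the cytoskeletal genes, held the strongest sites of all 10 genes in list 2. Inside Gsn, 17.5 kb from its 5′ end (chromosome 2, 35273661 to 35274224 in list 1), gelsolin's gene reached 18.9-fold in list 1 (14.4 to 24.4, 57 fragments) and 34.2-fold in list 2 (27.9 to 41.6, 99 fragments). RefSeq also lists Gsn promoter windows inside the span, and the list 1 summit of this site lay 8.32 kb upstream of one. Another Gsn site 26.0 kb upstream (35230089 to 35230580 in list 1) was 17.3-fold in list 1 (12.8 to 22.8) and 24.2-fold in list 2 (19.3 to 29.9). The site 35.0 kb past the gene, nearest to Stom, was 13.6-fold and 12.9-fold with 36 fragments in each list. The next, 11.05 kb upstream, was 9.55-fold and 8.61-fold. The fifth by strength, 9.11 kb into the gene and 1.02 kb upstream of another such window, was in list 1 alone at 8.08-fold (5.14 to 12.2). Gsn had 10 summits in list 1 and 8 in list 2, or 66.0 and 52.8 per Mb.

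Vim had 9 summits in list 1 and 7 in list 2 in a window of 108.5 kb, which was the highest density of the 10 genes in each list. At 82.9 per Mb in list 1 and 64.5 in list 2, it was matched or exceeded by 0.287% and 0.740% of protein-coding genes. Its strongest site lay 20.2 kb upstream (chromosome 2, 13553695 to 13554777 in list 1) and was 20.2-fold in list 1 (15.5 to 26.0, 59 fragments) and 32.1-fold in list 2 (26.5 to 38.7, 110 fragments). The summits of the lists were at the same base. A site 16.8 kb upstream was 11.4-fold in list 1 (7.80 to 16.1) and 5.82-fold in list 2 (3.47 to 9.24).

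These and the weaker Vim site at Gm9875, 15.6 kb upstream (5.11-fold in list 1 and 6.70-fold in list 2), lay between Trdmt1 and Vim and were nearer to Trdmt1. Also among the strongest was a site inside Trdmt1, 47.9 kb from Vim (8.12-fold in list 1 and 5.93-fold in list 2). Closer to the gene, a site 2.06 kb upstream was 7.71-fold in list 1 (4.85 to 11.7) and 9.77-fold in list 2 (6.56 to 14.1). A summit 0.76 kb upstream was in list 1 alone at 4.04-fold on 10 fragments.

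**Figure D2:**
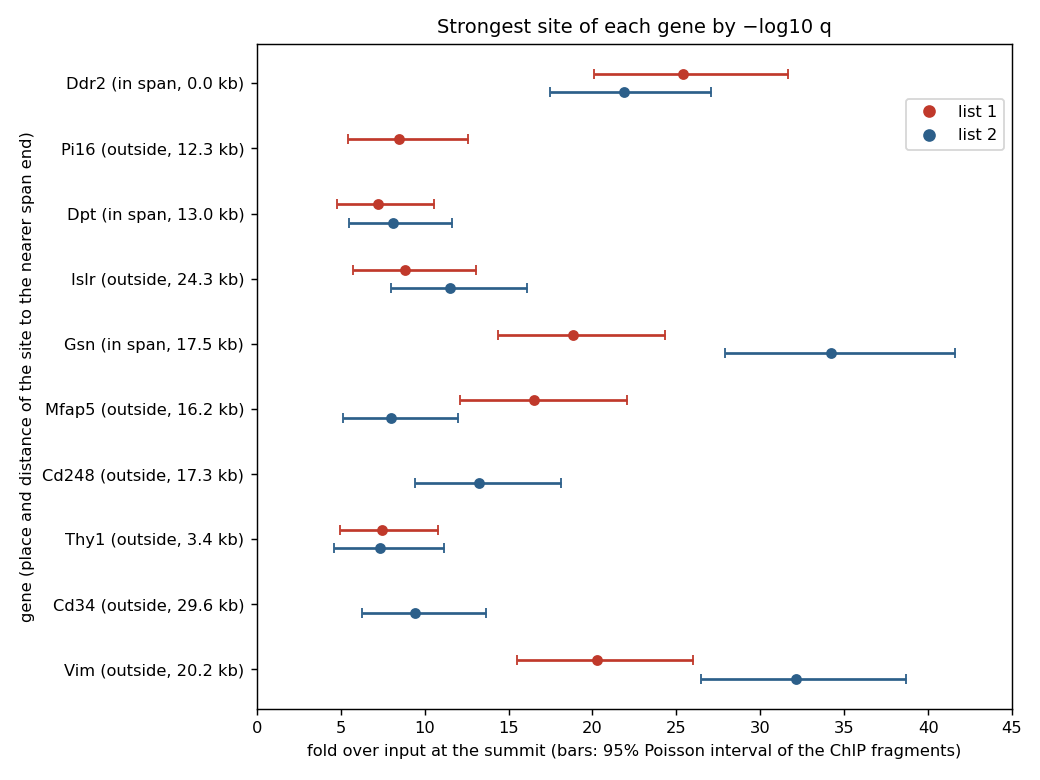
Fold over input of each gene's strongest site by −log10 q, with list 1 above list 2 in each row and bars for the 95% Poisson interval of the ChIP fragments. The intervals of the lists do not overlap at Gsn, Mfap5 and Vim, and the sites of Pi16, Cd248 and Cd34 are in 1 list only.

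Across the 10 genes the sites at or above 10-fold in both lists were 6, and all lay at Ddr2, Gsn and Vim. At least 1 summit of 10-fold or more was within reach of 4 of the 10 genes in list 1 and 5 of 10 in list 2, against 24.4% and 28.1% of protein-coding genes. These were Ddr2, Gsn, Mfap5 and Vim in list 1, and Ddr2, Gsn, Vim, Islr and Cd248 in list 2. Such counts were not particular to the 10 genes. Among the gene lists described below, smooth muscle and pericyte markers also had 4 and 5 of 10. Activated fibroblast genes had 8 of 15 in each list, and other resident fibroblast genes 6 and 10 of 20. Cardiomyocyte markers had 1 and 4 of 10, endothelial 3 and 2, leukocyte 2 and 3, and epicardial 3 and 3. Ddr2, Gsn and Vim also held 31 of the 53 peaks in list 1 and 27 of the 48 in list 2. The other 7 genes shared 22 and 21.

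**Figure D3:**
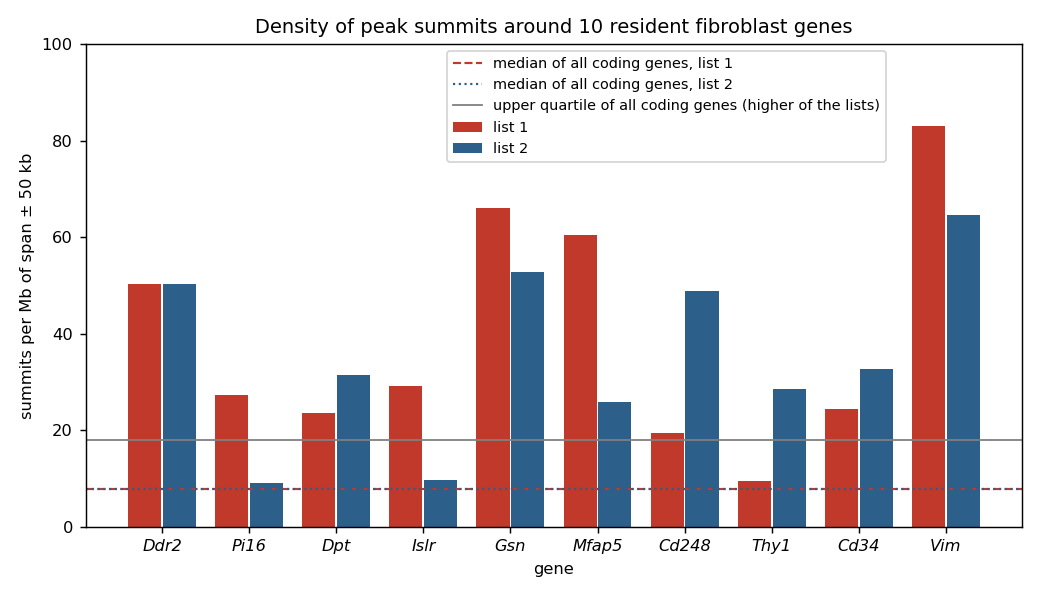
Summits per Mb of gene span and 50 kb on either side, for each gene in list 1 (left bar) and list 2 (right bar), with the medians and the upper quartile of all 21631 protein-coding genes as lines. Vim is highest with 82.9 and 64.5, and Thy1 in list 1 (9.51), Pi16 in list 2 (9.08) and Islr in list 2 (9.71) are near the median of all genes.

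Where the sites lay differed between genes. Of 66 distinct sites 18 were inside the span of their gene and 48 outside. Ddr2, with its long span, alone held 10 of the 16 summits inside a span in list 1 and 9 of the 15 in list 2. Ddr2, Dpt, Gsn, Cd34 and Vim had a summit inside the span in both lists, and the other 5 genes had none in either. For the 7 genes with a known strand, 24 sites were upstream of the span and 8 downstream. The gene itself was the nearest protein-coding gene for 41 of the 66 sites. These position counts have no matching share over all genes here, so they are not read as traits of the 10 genes. Background at the summits, which MACS2 takes from the input, was between 1.72 and 3.63 fragments in list 1 and between 1.87 and 4.06 in list 2. It reached 767 and 701 elsewhere in the lists. At 47.2% of the peaks near the genes in list 1 and 39.6% in list 2, it was the lowest value of the list. Over the whole lists these shares were 37.4% and 38.7%. Folds at such peaks share a common background value within each list, so they show no input difference between sites.

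The lists were then set against each other at these genes. Of 53 peaks 36 in list 1 had an overlapping peak in list 2, which is 67.9% (exact 95% interval 53.7 to 80.1), against 70.9% of the whole of list 1. Of 48 peaks 35 in list 2 had one in list 1, which is 72.9% (58.2 to 84.7), against 71.4% of the whole of list 2. Both whole-list values lie inside the intervals. The intervals treat peaks as independent, and peaks of the same gene may not be, so they may be too narrow. Peaks in 1 list only were weaker: their median fold was 5.14 in list 1 and 4.66 in list 2, against 7.35 and 6.51 for shared ones. The same held over the whole lists, with 4.73 and 4.88 against 7.58 and 8.37. Most of the list-only peaks near the 10 genes rested on few fragments, with a median of 14 in each list. The Cd248 site at Rin1 in list 2 and the Mfap5 site in Apobec1 in list 1 were the list-only peaks at or above 10-fold.

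At 35 sites a peak of each list was the other's best overlap. The remaining overlapping list 1 peak, 17.9 kb upstream of Vim, met a list 2 peak that matched another better. Their summits were a median of 21 bp apart (range 0 to 186), against 25 bp over 15015 such sites of the whole lists. The log2 ratio of the folds, list 1 over list 2, had a median of 0.12 (SD 0.51, range -0.92 to 1.08), against -0.15 (SD 0.55) over the whole lists. The fold was higher in list 1 at 22 of the 35 sites and at 38.3% of all sites. At the 6 sites of 10-fold or more in both lists, list 1 was higher at 2 and list 2 at 4. The counting intervals of the lists overlapped at 32 of the 35 sites. They lay apart at the Mfap5 site, where list 1 was higher, and at the strongest Gsn and Vim sites, where list 2 was higher. Over the whole lists 8.78% of sites had intervals that lay apart. With 1 library behind each list, these differences have no replicate check.

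**Figure D4:**
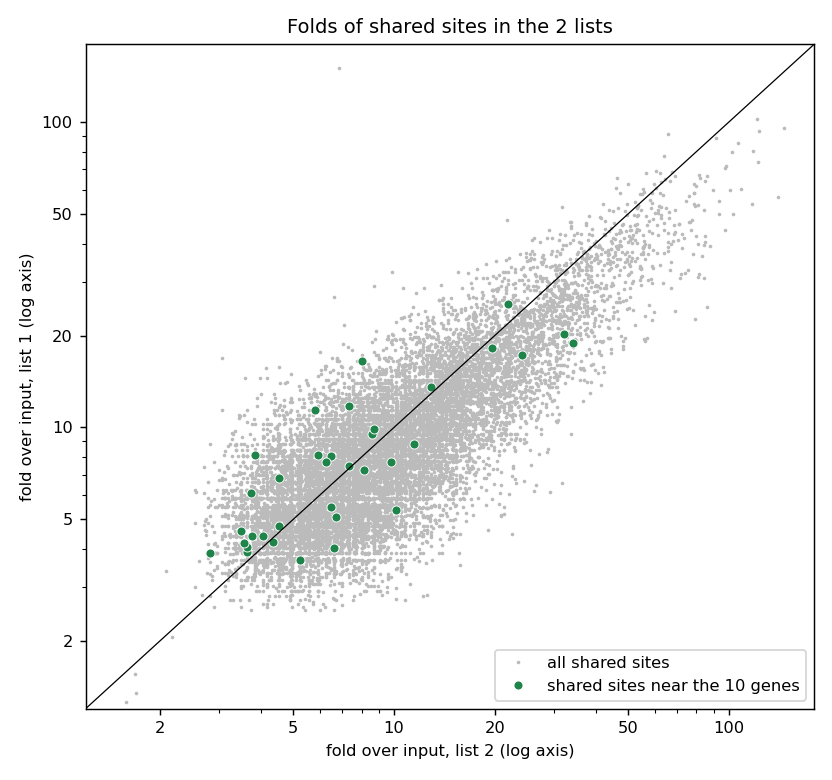
Fold over input in list 1 against list 2 at all 15015 shared sites (grey) and at the 35 near the 10 genes (green), on log axes with the line of equality. The 35 sites lie within the grey cloud, with 22 of them above the line.

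Other genes of resident or quiescent fibroblasts were counted in the same way. Summits came within 50 kb of 16 of 20 such genes in list 1 and of 15 in list 2, with a median of 2 and 2.5 summits. Over all protein-coding genes the shares were 58.2% and 59.0%. Dcn and Lum, both in this list, had the same strongest peak in each peak list, so that peak counts for both genes. The strongest by −log10 q in list 1 were at Fbln1, encoding the matrix protein fibulin-1 (20.1-fold in list 1 and 27.8-fold in list 2), and Medag (24.6-fold and 22.7-fold). Loxl1, encoding a lysyl oxidase of elastic fibres (20.9-fold and 31.8-fold), Serpinf1 (20.9-fold and 16.7-fold) and Clec3b, encoding tetranectin (15.2-fold and 14.9-fold), came next. The summits at Fbln1, Medag and Loxl1 lay inside the gene span. Those of Serpinf1 and Clec3b lay outside it, 40.6 and 30.3 kb away. Tcf21, a transcription factor of the fibroblast lineage, had none within 50 kb in either list, nor had Gfpt2, Abi3bp and Entpd2.

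The count of 10 in 10 was not particular to the resident fibroblast genes. Smooth muscle and pericyte markers also had a summit within reach in 10 of 10 cases in each list, and cardiomyocyte markers in 10 of 10 in list 1 and 7 of 10 in list 2. Activated fibroblast genes had 13 of 15 in each list. Endothelial markers had 8 of 10 in each list, epicardial markers 8 and 9 of 10, and leukocyte markers 8 and 7 of 10. The median number of summits was 4 and 3 for activated fibroblast genes, 2.5 and 2 for smooth muscle and pericyte markers, and between 1 and 2 in each list for the other cell types, against 3 and 4 for the 10 genes.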

How the data were processed

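Per the submitters' processing notes, the authors used Trimmomatic 0.33, Bowtie 1.1.2 and MACS2, read here as trimmer, aligner and peak caller. The sources used here give no MACS2 version or setting and say nothing of duplicate reads. For each peak the deposited lists give the fold over input, a ratio with 1 added to ChIP pileup and background, and the authors' −log10 p and −log10 q (p-value and q-value).

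The notes name mm39, but the coordinates were read as GRCm38. Of list 1 and list 2 summits, 1129 and 1072 lay within 1 kb of protein-coding gene ends in RefSeq's GRCm38.p6 table, against 866 to 931 and 845 to 972 after 6 fixed shifts. The table has no exons. Strand and promoter sequence came from RefSeq's promoter table, where 7 of the 10 genes matched.

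Solving fold and p gave the ChIP fragments at each summit, whole within 0.02 for all but 2 peaks of each list. Over all peaks the median number was 19 in list 1, against 22 in list 2. Exact Poisson intervals on these numbers gave the fold intervals, and shares have exact Clopper-Pearson intervals; both cover counting error only, and fragments without molecular identifiers are not independent molecules. An overlap of 1 bp or more made a peak shared. No test was run, since each list rests on 1 ChIP library. The scripts (Python 3.11.15, SciPy 1.17.1) were tested on simulated data.

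The 10 genes and the other gene lists were chosen with earlier results of these data known. All 10 genes are named with their 5 strongest sites by −log10 q. Of the other resident fibroblast genes, the 5 strongest in list 1, those with no peak, and Dcn and Lum for their common peak are named. One of the 5 strongest sites of Mfap5 is not reported here. The alternatives tried were other windows, nearest genes only, stricter peak sets and other rules of sharing.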

Additional observations from a re-analysis of the deposited data

How the results depend on the processing

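Of 73 recomputed values 49 stayed close to those reported (within 1.5 times for a count, and inside its 95% interval for a share or median). Another 23 moved farther and 1 changed sign. Some of the 49 could not have differed. With 10 of 10 genes reached at 50 kb, the 100 kb window had to give the same, and the longer TEAD letters had to give 0. With summits within 1 kb, genes with a peak fell to 6 and 5 of 10 and peaks to 18 in list 1 and 15 in list 2, and 86.7% of the list 2 peaks were shared. Within 10 kb there were 29 and 23 peaks. With nearest genes only there were 34 and 29 peaks, and 9 of the 10 genes in list 1 and 7 in list 2 kept one.

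At a −log10 q of at least 5, list 1 and list 2 kept 35 and 32 peaks, the median fold was 8.07 and 7.33, and the median fragment number 23 in each list. With the 5000 strongest peaks of each list, 4 genes in each list, 9 and 7 peaks, median folds of 17.3 and 21.9, and medians of 48 and 82 fragments were left, and 85.7% of the list 2 peaks were shared. There the log2 ratio (list 1 over list 2) had a median of -0.29 at 6 pairs, against 0.12 at 35. Stricter sets keep strong peaks by construction. The longer TEAD letters GGAATGT or ACATTCC, chosen after seeing the data, were present in 3.87% of all windows. They contain the shorter letters, so their 0 of 9 windows of the 10 genes was fixed in advance and checks nothing.

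No paired analysis was possible because each group holds 1 library and no list is tied to a sample. At the lowest depth used, 9 fragments at a summit, an interval spans 1.88 to 6.64 for a fold of 3.67 in list 1.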
